A study of Mus musculus with 6 samples.

Results

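Mitochondrial carrier genes were compared between ventricles of wild-type mice and of mice with a heart-specific transgene for a constitutively activated Akt (caAkt). The members were taken by gene symbol: every gene whose symbol starts with Slc25a, with the carnitine carrier Slc25a20 left out, and the uncoupling proteins Ucp1 and Ucp3. This gave 45 of the 18193 genes measured, read by 94 probe sets. Slc25a21, Slc25a43, Slc25a52 and Ucp2 were not analysed here. Both groups, 3 wild-type and 3 caAkt arrays, came from mice 8 weeks of age, and no allele or treatment beside the transgene was named in the labels. The promoter that drives the transgene, the strain, the sex and the number of animals behind each array are not stated in the labels.

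SLC25 proteins are nuclear-encoded carriers, almost all of them in the inner mitochondrial membrane, which lets few charged metabolites pass without a carrier. Each moves a particular set of substrates, usually by exchange: ADP against ATP, phosphate, citrate, malate, aspartate, coenzymes or iron. In the heart the ADP/ATP and phosphate carriers serve ATP synthesis, and the aspartate/glutamate and oxoglutarate carriers make up the membrane steps of the malate-aspartate shuttle, which brings reducing equivalents from cytosolic NADH into the matrix. Uncoupling proteins belong to the same family.

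The values are log2 expression values made with RMA, in which a difference of 1 is a doubling. Array medians were 6.77 to 6.80 and the highest signals 15.32 to 15.45. Arrays of the same genotype correlated at 0.995 to 0.997 over all probe sets and arrays of different genotype at 0.983 to 0.985, a description across probe sets that are not independent. A probe set of Akt1 read 9.79, 9.79 and 10.18 on the wild-type arrays and 15.16, 15.10 and 15.08 on the caAkt arrays, higher in the group labelled caAkt. The other probe sets of Akt1 differed by -0.29 to 0.08. Of these, the one at -0.29 (means of 10.71 in wild-type and 10.42 in caAkt) was called lower over all probe sets (limma, adjusted p = 0.0248). The cardiomyocyte markers Myh6, Actc1, Tnnt2, Tnni3, Myl2, Ryr2, Pln and Actn2 were all well above low signal in both groups. Low signal here means a mean under 7.41 in both groups, the 90th percentile of 18 genes restricted to other tissues, and 9 of the 45 carriers were at low signal.

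Carrier genes were lower in caAkt hearts more often than they were higher. Of the 45 members 15 fell (33.3%), where 12.4% of all genes fell, and 6 rose (13.3%), where 16.1% of all genes rose (28.5% in either direction), at an adjusted p under 0.05 (limma, Benjamini-Hochberg over 18193 genes). The remaining 24 did not pass the test. The median log2 fold change, caAkt minus wild-type, was -0.13 over the members and -0.04 over all genes. Among genes above low signal, 14 of 36 members fell (38.9%) and 6 rose (16.7%), where 17.3% of 10210 genes fell and 24.7% rose, and the medians were -0.20 and 0.02. A gene counts as above low signal if either group mean is, so this selection is not independent of the comparison. Slc25a40, counted among those that fell, was kept only through its wild-type mean (7.77, against 7.37 in caAkt). Slc25a32, which was not called, was kept only through its caAkt mean (7.42, against 7.24 in wild-type). No member changed 2-fold: the largest fall was 1.87-fold, in Slc25a34, and the largest rise 1.49-fold, in Slc25a24. The 3 values of 1 group lay entirely on one side of the other for 26 members (57.8%), with caAkt below in 19 (42.2%) and above in 7 (15.6%), against 42.4%, 21.1% and 21.4% of all genes. All 21 members that changed were among these 26. Of the 21, 12 passed the test whichever array was left out (9 that fell and 3 that rose). The number that rose was 3 without wild-type replicate 2 or caAkt replicate 2.

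**Figure D1:**
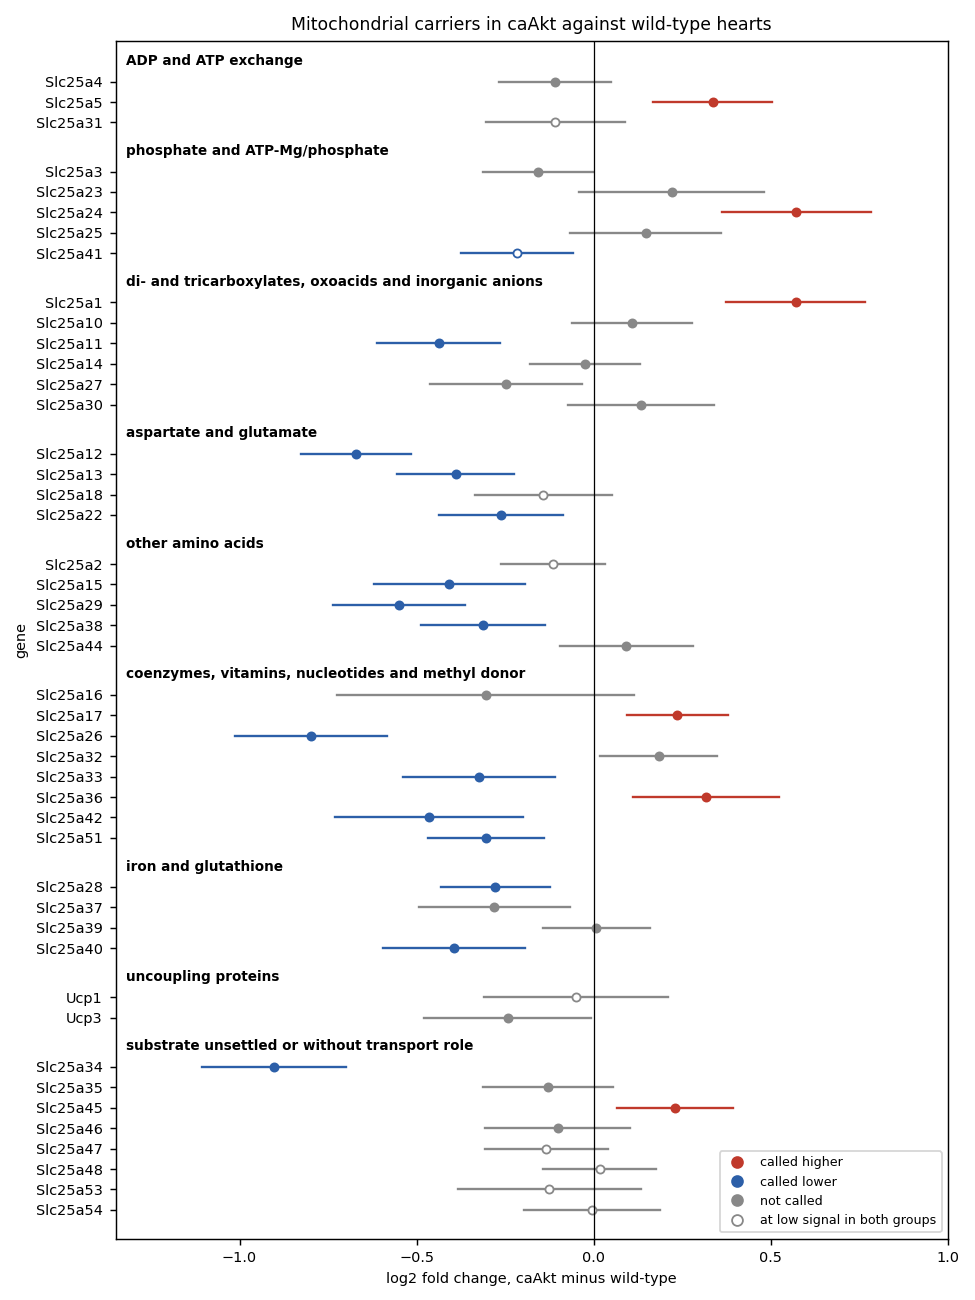
Log2 fold change (caAkt minus wild-type, x axis) of each of the 45 carrier genes (y axis), grouped by transported substrate. Points are estimates, horizontal bars the 95% confidence intervals of the limma fit, colours the direction of the genes that passed the test, and open points genes at low signal in both groups. The points in the classes for aspartate and glutamate lie to the left of 0, while the ADP/ATP, phosphate and carboxylate classes hold points on both sides.

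Cell type markers moved between the groups as well. Of 8 macrophage markers 8 rose (median log2 fold change 1.31), and their summed un-logged signal was 6761 to 7866 on the wild-type and 15690 to 19434 on the caAkt arrays. Of 8 fibroblast markers 6 rose (median 0.82), with sums of 28460 to 36434 on the wild-type and 71677 to 79177 on the caAkt arrays. Among 8 cardiomyocyte markers, Tnni3, Ryr2 and Pln fell (Ryr2 with an adjusted p of 0.124 to 0.156 in 4 of the 6 fits that omit an array, those without wild-type replicates 1 and 2 and caAkt replicates 2 and 3), and the median was -0.17, with sums of 231631 to 254798 on the wild-type and 225019 to 228082 on the caAkt arrays. Of 7 endothelial markers 3 fell (median -0.24; sums of 8719 to 9252 on the wild-type and 7101 to 7713 on the caAkt arrays), and of 6 smooth muscle and pericyte markers 1 rose and 1 fell (median -0.07; sums of 16656 to 18800 on the wild-type and 13702 to 19610 on the caAkt arrays). Among 6 lymphocyte markers, Ptprc, which macrophages also carry, rose, and 4 were at low signal in both groups (median of the list 0.01; sums of 687 to 799 on the wild-type and 988 to 1216 on the caAkt arrays). The calls of Pdgfra (fibroblast), Emcn (endothelial) and Tagln (smooth muscle) were likewise lost on omitting single arrays (adjusted p up to 0.0703, 0.0906 and 0.124). The part of these shifts in the carrier values was not tested, and in ventricular tissue fewer cells of a type and less RNA per cell cannot be told apart.

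The promoters of 4 members are shown because they head the results below: Slc25a34 with the largest fall, the related shuttle carriers Slc25a12 and Slc25a13, which fell, and the citrate carrier Slc25a1, which rose. Sequences are those of RefSeq, build GRCm38.p6, from 250 bases before to 50 after the start, 5′ to 3′, with motif matches in capitals. Slc25a34 lies at chr4:141623785-141624084, minus strand, Slc25a12 at chr2:71367706-71368005, minus strand, Slc25a13 at chr6:6217124-6217423, minus strand and Slc25a1 at chr16:17928170-17928469, minus strand.
Slc25a34: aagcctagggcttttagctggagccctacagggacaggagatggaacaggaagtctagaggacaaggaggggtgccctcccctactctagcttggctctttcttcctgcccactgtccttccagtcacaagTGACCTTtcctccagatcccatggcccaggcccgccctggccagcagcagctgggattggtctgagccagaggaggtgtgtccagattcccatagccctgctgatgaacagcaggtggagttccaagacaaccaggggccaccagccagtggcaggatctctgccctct
Slc25a12: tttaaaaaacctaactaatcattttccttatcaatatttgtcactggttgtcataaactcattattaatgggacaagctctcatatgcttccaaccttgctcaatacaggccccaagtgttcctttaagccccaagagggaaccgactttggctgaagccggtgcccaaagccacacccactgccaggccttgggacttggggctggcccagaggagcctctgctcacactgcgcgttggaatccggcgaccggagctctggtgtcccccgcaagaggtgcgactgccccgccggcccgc
Slc25a13: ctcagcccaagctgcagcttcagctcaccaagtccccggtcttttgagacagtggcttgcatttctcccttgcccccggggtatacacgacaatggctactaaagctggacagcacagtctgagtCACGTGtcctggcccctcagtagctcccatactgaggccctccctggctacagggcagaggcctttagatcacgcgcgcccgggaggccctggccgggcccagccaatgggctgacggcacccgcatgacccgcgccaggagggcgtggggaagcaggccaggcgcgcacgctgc
Slc25a1: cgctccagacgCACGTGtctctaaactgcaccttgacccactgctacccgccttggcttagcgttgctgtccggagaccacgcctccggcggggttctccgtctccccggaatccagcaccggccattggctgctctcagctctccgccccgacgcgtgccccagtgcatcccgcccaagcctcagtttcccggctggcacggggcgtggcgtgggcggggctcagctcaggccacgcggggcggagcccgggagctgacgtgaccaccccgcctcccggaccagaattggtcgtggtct
The letters searched on both strands were CACGTG, the E-box, AAGGTCA, a half-site of nuclear receptors, and TNAAGGTCA, its extended form for the estrogen-related receptors, which contains the former. A RefSeq promoter was found for 35 members, 44 promoters in all, and not for Slc25a2, Slc25a26, Slc25a27, Slc25a32, Slc25a35, Slc25a37, Slc25a41, Slc25a44, Slc25a46 and Slc25a51. CACGTG stood in 8 of the 44 (18.2%), at 7 distinct sites of 7 genes since overlapping windows of Slc25a14 share a site, and in 7.15% of 32851 promoters of the same length. It was present in promoters of members that fell, rose or did not pass: it begins at base 12 of the Slc25a1 window and at base 126 of that of Slc25a13, and is also found before Slc25a15 and Slc25a33, which fell, Slc25a36, which rose, and Slc25a14 and Slc25a31, which did not pass. AAGGTCA was found in 1 of the 44 (2.27%, against 4.72% of all promoters), at base 132 of the Slc25a34 window. TNAAGGTCA, held by 1.28% of all promoters, was in 0 of the 44. These matches describe letters in a window and are not evidence of binding.

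In the ADP/ATP class the member that changed was the widely expressed isoform. Slc25a5, which encodes ANT2, read 13.77, 13.78 and 13.60 on the wild-type arrays and 14.09, 14.01 and 14.06 on the caAkt arrays. The caAkt values all lay above the wild-type values, and the log2 fold change was 0.34 ± 0.07 (SE; limma, adjusted p = 0.00830), or 1.26-fold. Slc25a4, which encodes ANT1, the isoform of heart and skeletal muscle, read 15.11, 15.13 and 14.98 on the wild-type arrays and 14.95, 14.99 and 14.96 on the caAkt arrays. Its groups overlapped and it did not pass the test, with a log2 fold change of -0.11 ± 0.07 (95% confidence interval -0.27 to 0.05, adjusted p = 0.286). Its values stand close to the highest signals on the arrays, where a difference may be understated. Slc25a31, the isoform of germ cells, was at low signal with means of 3.89 and 3.79. On each array the log2 value of Slc25a5 minus that of Slc25a4 was higher in caAkt hearts, by 0.44 on average, and the groups did not overlap. This pair is 1 of 6 pairs of related carriers compared in this way, all chosen after their values were seen. An exact permutation test of 3 against 3 arrays gave its smallest two-sided p, 0.1, for this pair (0.15 adjusted over the 6).

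Probe sets of the paired isoforms differed in size but not in direction. All 8 probe sets of Slc25a5 gave positive differences, 0.12 to 0.35, and 4 of them passed the test over all probe sets (limma). However, 6 of the 8 carry the suffix _x_at, given to probe sets whose probes match other sequences too, and the only one without a suffix gave 0.12 and did not pass (adjusted p = 0.427 among plain probe sets). Another, of the suffix _a_at, gave 0.30 and passed (adjusted p = 0.0139 over all probe sets). All 4 probe sets of Slc25a4 gave negative differences, -0.55 to -0.11. The lowest, -0.55, came from a dim probe set (7.98 and 7.43) and passed the test, while the other 3 did not. Slc25a3, the phosphate carrier that supplies ATP synthase, showed the same contrast. At its bright probe set it read 14.69, 14.72 and 14.57 on the wild-type arrays and 14.48, 14.51 and 14.50 on the caAkt arrays. The groups were apart, but the difference of -0.16 ± 0.07 did not pass (adjusted p = 0.122; -0.19 and 0.0449 with array weights). A dim probe set of Slc25a3 gave -0.44 and passed (means of 7.61 and 7.17).

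**Figure D2:**
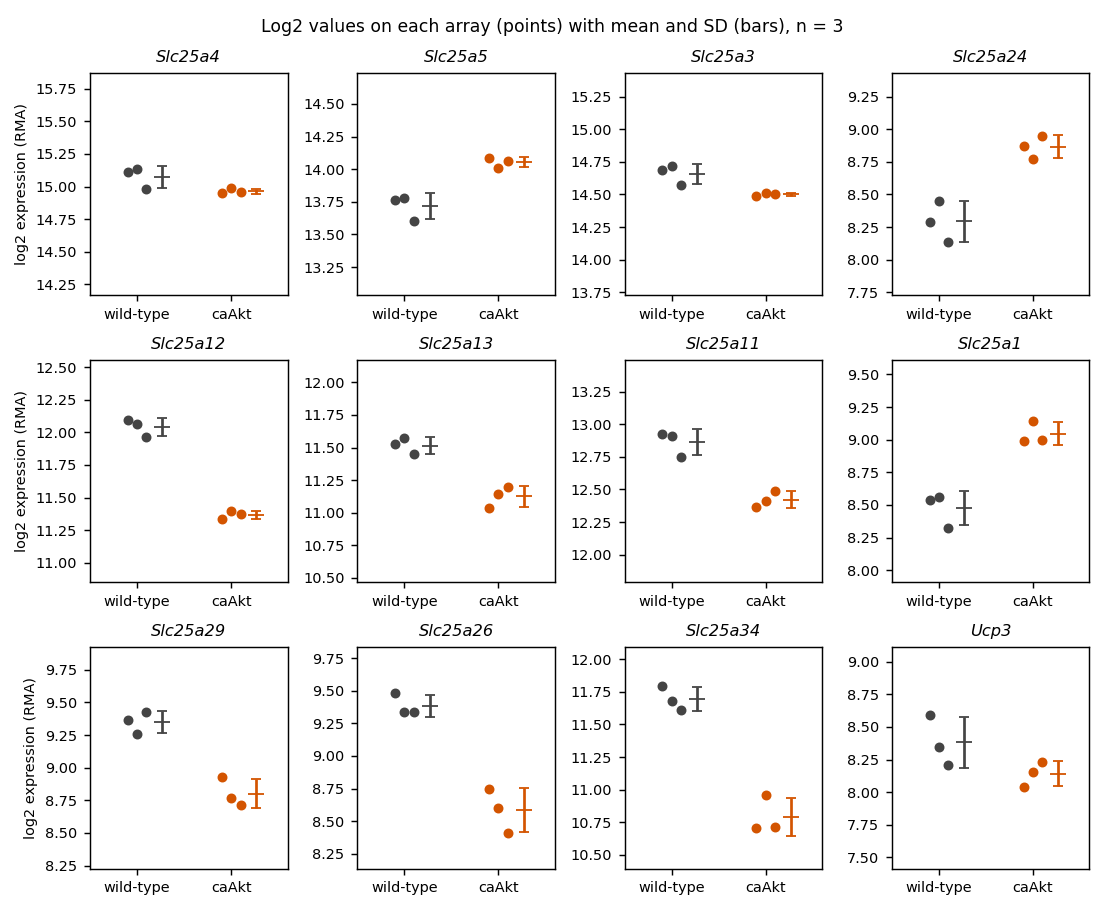
Log2 expression (y axis) on each array for 12 carriers, with wild-type at left and caAkt at right in each panel, and all panels spanning the same log2 range. Points are single arrays and bars the mean and SD of 3. The caAkt points of Slc25a5, Slc25a24 and Slc25a1 lie above those of wild-type, those of Slc25a12, Slc25a13, Slc25a11, Slc25a29, Slc25a26 and Slc25a34 lie below, and the groups of Slc25a4 and Ucp3 overlap.

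Among the ATP-Mg/phosphate carriers, which adjust the adenine nucleotide content of the matrix, Slc25a24 rose. It read 8.29, 8.45 and 8.14 on the wild-type arrays and 8.87, 8.77 and 8.95 on the caAkt arrays. The groups were apart, with a log2 fold change of 0.57 ± 0.09 (adjusted p = 0.00157), 1.49-fold, and its dimmer probe set gave 0.23 without passing. Its relatives Slc25a23 (0.22 ± 0.12) and Slc25a25 (0.15 ± 0.09) did not pass, and the changes of Slc25a24 and Slc25a23 differed by 0.35 with overlapping groups (exact permutation p = 0.3; 0.36 adjusted over the 6 pairs). Slc25a23 passed without wild-type replicate 3 (0.36, adjusted p = 0.00814) and with array weights (0.32, adjusted p = 0.0389). Slc25a41, at low signal, read 6.14, 6.16 and 6.002 on the wild-type arrays and 5.90, 5.86 and 5.88 on the caAkt arrays. It fell by 0.22 on the log2 scale (limma, adjusted p = 0.0461). Yet of the fits that omit 1 array it passed in that without wild-type replicate 3 alone (adjusted p 0.0873 to 0.156 without any other). Nor did it pass with the replicate number as a block (adjusted p = 0.0683), trend with robust eBayes (0.0610), median centring (0.0628) or a repeated quantile normalization (0.0705). The 18 low-signal reference genes were lower in caAkt as well, with a median of -0.11. Of these, 1 was called lower and 0 higher, and 6 were lower and 0 higher at an unadjusted p under 0.05 (limma). The part of such a shift in the value of Slc25a41 was not tested.

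The carriers of the malate-aspartate shuttle were lower. Slc25a12, the aspartate/glutamate carrier aralar of muscle and brain, read 12.09, 12.06 and 11.96 on the wild-type arrays and 11.33, 11.39 and 11.38 on the caAkt arrays. Slc25a13, the carrier citrin, best known from liver, read 11.52, 11.57 and 11.45 on the wild-type arrays and 11.04, 11.14 and 11.20 on the caAkt arrays. Slc25a11, which exchanges malate for oxoglutarate, read 12.93, 12.91 and 12.75 on the wild-type arrays and 12.36, 12.41 and 12.49 on the caAkt arrays. In all of these every caAkt value lay below every wild-type value. The log2 fold changes were -0.67 ± 0.07 for Slc25a12 (adjusted p = 0.000105), -0.39 ± 0.07 for Slc25a13 (adjusted p = 0.00355) and -0.44 ± 0.08 for Slc25a11 (adjusted p = 0.00242), and each passed without any single array. The fall of Slc25a12 exceeded that of Slc25a13 by 0.28, with per-array differences that did not overlap between groups (exact permutation p = 0.1, the smallest possible; 0.15 adjusted over the 6 pairs). All 3 probe sets of Slc25a12 passed the test, with -0.67 to -0.46. The shuttle's transaminases fell too, Got2 by 0.48 ± 0.06 (SE, adjusted p = 0.000474) and Got1 by 0.30 ± 0.07 (adjusted p = 0.0121), while the malate dehydrogenases Mdh1 (-0.03 ± 0.07) and Mdh2 (-0.23 ± 0.09) did not pass.

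Of the glutamate carriers, Slc25a22 read 10.005, 9.94 and 10.04 on the wild-type arrays and 9.74, 9.62 and 9.85 on the caAkt arrays. The caAkt values were below the wild-type ones by a mean of 0.26 (adjusted p = 0.0331), but among the fits without single arrays it passed only without caAkt replicate 3 (adjusted p 0.0602 to 0.110 without any other). Its relative Slc25a18 was at low signal with a value of -0.14 and did not pass.

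Within the carboxylate class, the citrate carrier went opposite to the oxoglutarate carrier. Slc25a1, which exports citrate for cytosolic acetyl-CoA, read 8.54, 8.56 and 8.32 on the wild-type arrays and 8.99, 9.15 and 8.9999 on the caAkt arrays. All caAkt values were above the wild-type ones, and the log2 fold change was 0.57 ± 0.09 (adjusted p = 0.00109), or 1.48-fold. Its change exceeded that of Slc25a11 by 1.01, with per-array differences apart in the groups. The exact permutation test gave its smallest possible p, 0.1 (0.15 adjusted over the 6 pairs). Both genes already had their groups apart, in opposite directions, so this outcome was fixed in advance and adds no support to the separate calls. On either side of citrate export, Cs, citrate synthase of the matrix, fell by 0.50 ± 0.08 (limma, adjusted p = 0.00198). Acly, which cleaves citrate in the cytosol, had a value of -0.09 ± 0.08 and did not pass. The dicarboxylate carrier Slc25a10 (0.11) and the carriers related to the uncoupling proteins, Slc25a14 (-0.03), Slc25a27 (-0.25) and Slc25a30 (0.13), did not pass either. Slc25a27 had all caAkt values below the wild-type ones and was called after a repeated quantile normalization (-0.29, adjusted p = 0.0419).

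Carriers of other amino acids were lower where they changed. Slc25a29, a carrier of basic amino acids, read 9.36, 9.26 and 9.43 on the wild-type arrays and 8.93, 8.76 and 8.71 on the caAkt arrays. Slc25a15, the ornithine carrier, read 8.83, 8.56 and 8.60 on the wild-type arrays and 8.38, 8.22 and 8.16 on the caAkt arrays. Slc25a38, which brings glycine into the matrix for heme synthesis, read 9.01, 9.10 and 9.23 on the wild-type arrays and 8.75, 8.81 and 8.84 on the caAkt arrays. In each the groups were apart, with caAkt lower. Slc25a29 fell by 0.55 ± 0.08 (adjusted p = 0.00100), and all 5 of its probe sets passed, with -0.66 to -0.30. Slc25a15 fell by 0.41 ± 0.09 (adjusted p = 0.0106; its dimmer probe set gave -0.13 and did not pass), and Slc25a38 by 0.31 ± 0.08 (adjusted p = 0.0142; 0.0530 without caAkt replicate 1). Oat, ornithine aminotransferase of the matrix, fell by 0.27 ± 0.08 (adjusted p = 0.0276; 0.0802 without wild-type replicate 1, 0.102 without wild-type replicate 2, 0.0927 without caAkt replicate 1 and 0.0552 without caAkt replicate 2). Slc25a2, a relative of the ornithine carrier, was at low signal (-0.12). Slc25a44, the carrier of branched-chain amino acids, gave 0.09 ± 0.08 at its brightest probe set and did not pass, while another of its 3 probe sets gave -0.39 and passed, so that its direction depends on the probe set. Bcat2, the mitochondrial transaminase of the same amino acids, fell by 0.92 ± 0.24 (adjusted p = 0.0181; 0.0665 without wild-type replicate 3).

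Coenzyme, vitamin and nucleotide carriers went both ways, with 4 of 8 lower and 2 higher. Slc25a26, which imports the methyl donor S-adenosylmethionine, had the second-largest fall of the family and read 9.48, 9.34 and 9.34 on the wild-type arrays and 8.74, 8.60 and 8.41 on the caAkt arrays. Slc25a51, the NAD carrier, read 11.10, 11.10 and 11.13 on the wild-type arrays and 10.89, 10.83 and 10.70 on the caAkt arrays. Slc25a42, which carries coenzyme A, read 10.05, 9.98 and 10.29 on the wild-type arrays and 9.60, 9.86 and 9.46 on the caAkt arrays. The caAkt values of each lay below the wild-type values. Slc25a26 fell by 0.80 ± 0.09 on the log2 scale (adjusted p = 0.000268), 1.74-fold, and both of its probe sets passed. Slc25a51 fell by 0.30 ± 0.07 (adjusted p = 0.0124), but the mean of its 3 probe sets, -0.18, did not pass (adjusted p = 0.0602). Slc25a42 fell by 0.46 ± 0.12 (adjusted p = 0.0161) and did not pass without wild-type replicate 3 (0.0520), caAkt replicate 1 (0.0606) or caAkt replicate 3 (0.0646). A dimmer probe set of Slc25a42 gave -0.03 and did not pass, and the mean of both was -0.25 (adjusted p = 0.0241). Pank1, which starts coenzyme A synthesis, fell by 0.87 ± 0.11 (adjusted p = 0.000382).

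Slc25a17, the peroxisomal carrier of coenzyme A, FAD and NAD, was the member of this class that rose with the smallest adjusted p and read 8.26, 8.26 and 8.24 on the wild-type arrays and 8.49, 8.52 and 8.46 on the caAkt arrays. The groups were apart by a log2 fold change of 0.24 ± 0.06 (adjusted p = 0.0203), which did not pass without wild-type replicate 2 (0.0628) or caAkt replicate 2 (0.0625). A dimmer probe set of Slc25a17 gave -0.23, and the mean of both was 0.0030, so that the rise rests on 1 probe set. The pyrimidine nucleotide carriers moved apart: Slc25a36 rose (0.32 ± 0.09, adjusted p = 0.0289) and Slc25a33 fell (-0.32 ± 0.09, adjusted p = 0.0305). Their changes differed by 0.64, with per-array differences apart in the groups. The exact permutation test gave its smallest possible p, 0.1 (0.15 adjusted over the 6 pairs). Each gene already had its groups apart, in opposite directions, so this outcome was fixed in advance and adds no support to the separate calls. With 1 array omitted, Slc25a36 passed without wild-type replicate 1 alone (adjusted p 0.0509 to 0.0922 without any other). Slc25a33 did not pass without wild-type replicate 1 (0.0670), wild-type replicate 2 (0.114), caAkt replicate 2 (0.0928) or caAkt replicate 3 (0.106). The folate and FAD carrier Slc25a32 (0.18; 0.62 and called at a dimmer probe set) and Slc25a16 (-0.31) did not pass in the main comparison of genes; Slc25a32 did with the mean of probe sets (0.38, adjusted p = 0.0222) and Slc25a16 with the replicate number as a block (adjusted p = 0.0496).

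**Figure D3:**
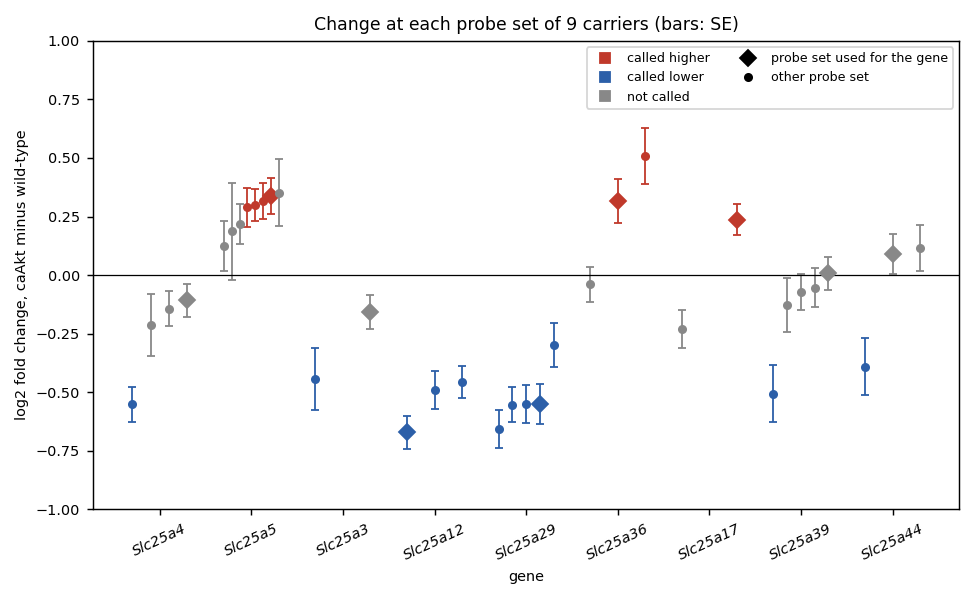
Log2 fold change (caAkt minus wild-type, y axis) at every probe set of 9 carriers (x axis), with bars of 1 SE. Diamonds are the brightest probe set, which stands for the gene, circles the others, and colours mark those that passed the test over all probe sets. The probe sets of Slc25a4, Slc25a5, Slc25a3, Slc25a12 and Slc25a29 keep 1 sign within each gene, while those of Slc25a36, Slc25a17, Slc25a39 and Slc25a44 lie on both sides of 0.

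Of the iron carriers of the inner membrane, the mitoferrins, 1 fell and the other missed the threshold. Slc25a28, mitoferrin 2, which is expressed widely, read 9.43, 9.55 and 9.53 on the wild-type arrays and 9.21, 9.26 and 9.20 on the caAkt arrays. Its groups were apart, and it fell by 0.28 ± 0.07 (adjusted p = 0.0137; 0.0600 without wild-type replicate 2). Slc25a37, mitoferrin 1, best known from red cell precursors, had a value of -0.28 ± 0.09, also with the groups apart, and missed the threshold (adjusted p = 0.0532). Omitting wild-type replicate 2 made it pass (-0.35, adjusted p = 0.0423), as did a repeated quantile normalization (-0.35, adjusted p = 0.0191), trend with robust eBayes (0.0471), the mean of probe sets (0.0459) and the filter on low signal (0.0360). The changes of the mitoferrins differed by 0.0026, with overlapping per-array differences (exact permutation p = 1.0), which does not show that they respond alike. Erythroid markers were lower as well, with 2 of 4 called (Alas2 and Slc4a1), a median of -0.57, sums of 773 to 1089 on the wild-type and 373 to 683 on the caAkt arrays, and 3 of 4 at low signal. Slc4a1 lost its call (adjusted p 0.0582 to 0.119) on omitting any of wild-type replicates 1 and 3 and caAkt replicates 2 and 3. The part of these markers in the value of Slc25a37 was not tested. Fech, which puts iron into heme, fell by 0.26 ± 0.07 (adjusted p = 0.0214; 0.0600 to 0.0718 on omitting any of wild-type replicates 1 and 2 and caAkt replicates 2 and 3).

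Of the glutathione carriers, Slc25a40 fell and Slc25a39 did not pass at its brightest probe set, and the difference between them was not tested. Slc25a40 read 7.89, 7.70 and 7.71 on the wild-type arrays and 7.29, 7.52 and 7.31 on the caAkt arrays. It fell with the groups apart, by 0.39 ± 0.09 (adjusted p = 0.00910). Its caAkt mean, 7.37, lies under the low-signal level of 7.41, and the gene is read by 1 probe set. Slc25a39 had a difference of 0.01 ± 0.07 at its brightest probe set (95% confidence interval -0.14 to 0.16), and the other 4 of its 5 probe sets gave -0.51 to -0.05, of which the lowest passed.

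The uncoupling proteins did not pass the test. Ucp3, the form of striated muscle, read 8.59, 8.35 and 8.21 on the wild-type arrays and 8.04, 8.15 and 8.23 on the caAkt arrays. Its groups overlapped, and its difference of -0.24 ± 0.10 (adjusted p = 0.116) was called only without wild-type replicate 3 (-0.33, adjusted p = 0.0438). Ucp1, which makes heat in brown fat, read 5.59, 5.41 and 5.88 on the wild-type arrays and 5.48, 5.59 and 5.65 on the caAkt arrays. It was at low signal on all arrays, with overlapping groups and a value of -0.05 ± 0.12. Of 5 adipocyte markers 4 were at low signal, 3 fell and 1, Cidea, rose (median -0.24; sums of 1353 to 1499 on the wild-type and 1497 to 1631 on the caAkt arrays). Of those that fell, Cidec and Retn lost their calls on omitting single arrays (adjusted p up to 0.0947 and 0.144), and Adipoq did not.

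The largest fall of the family was in a carrier whose substrate is not settled. Slc25a34 read 11.79, 11.68 and 11.61 on the wild-type arrays and 10.70, 10.96 and 10.71 on the caAkt arrays. Every caAkt value lay below every wild-type value, and the log2 fold change was -0.90 ± 0.09 (adjusted p = 9.35e-05), 1.87-fold, with an adjusted p of 0.0012 or less without any single array. Slc25a45 read 8.65, 8.65 and 8.60 on the wild-type arrays and 8.80, 8.97 and 8.81 on the caAkt arrays. It rose by 0.23 ± 0.07 (adjusted p = 0.0430) with the groups apart, but passed in no fit without 1 array (adjusted p 0.0594 to 0.132) and neither with the replicate number as a block (adjusted p = 0.0568) nor after a repeated quantile normalization (0.16, adjusted p = 0.120). The other members of this group, among them Slc25a46, an outer membrane protein of mitochondrial shape (-0.10), and Slc25a35, a relative of Slc25a34 (-0.13), did not pass. Slc25a47 (-0.13), Slc25a48 (0.02), Slc25a53 (-0.13) and Slc25a54 (0.00) were at low signal.

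Carriers reach the inner membrane through the receptor TOM70, the small TIM chaperones of the intermembrane space and the TIM22 insertase. Of 13 genes of this route 1 rose and 2 fell (7.69% and 15.4%), with a median log2 fold change of -0.07. The share that fell was near that of all genes, of which 16.1% rose and 12.4% fell. Of genes above low signal, where all 13 lie, 24.7% rose and 17.3% fell. Timm22, the channel of the insertase, rose by 0.30 ± 0.07 (adjusted p = 0.0142; 0.0630 without wild-type replicate 2 and 0.0525 without caAkt replicate 1). The small TIM genes Timm8b and Timm8a1 fell by 0.45 ± 0.07 (adjusted p = 0.00116) and 0.28 ± 0.09 (adjusted p = 0.0468; 0.0733 to 0.112 without any single array other than wild-type replicate 3). The chaperone genes Timm9 (-0.30 ± 0.13) and Timm10 (-0.01 ± 0.08), which escort the carriers, and the receptor gene Tomm70a (-0.08 ± 0.10) did not pass.

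Enzymes and pores that handle the carriers' substrates were lower in 8 of 19 cases (42.1%) and higher in 0 by limma (11 lower and 1 higher at an unadjusted p under 0.05), with a median of -0.21. Of all genes 12.4% were lower and 16.1% higher. Of genes above low signal, where all 19 lie, 17.3% were lower and 24.7% higher. Besides those named above, Ppif, the cyclophilin that regulates the permeability transition pore, fell by 0.49 ± 0.07 (adjusted p = 0.000670). The outer membrane channels Vdac1 (-0.12 ± 0.09), Vdac2 (0.00 ± 0.07) and Vdac3 (-0.21 ± 0.09), the mitochondrial creatine kinase Ckmt2 (-0.04 ± 0.08) and the pyruvate carrier subunit Mpc1 (-0.19 ± 0.12) did not pass.

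**Figure D4:**
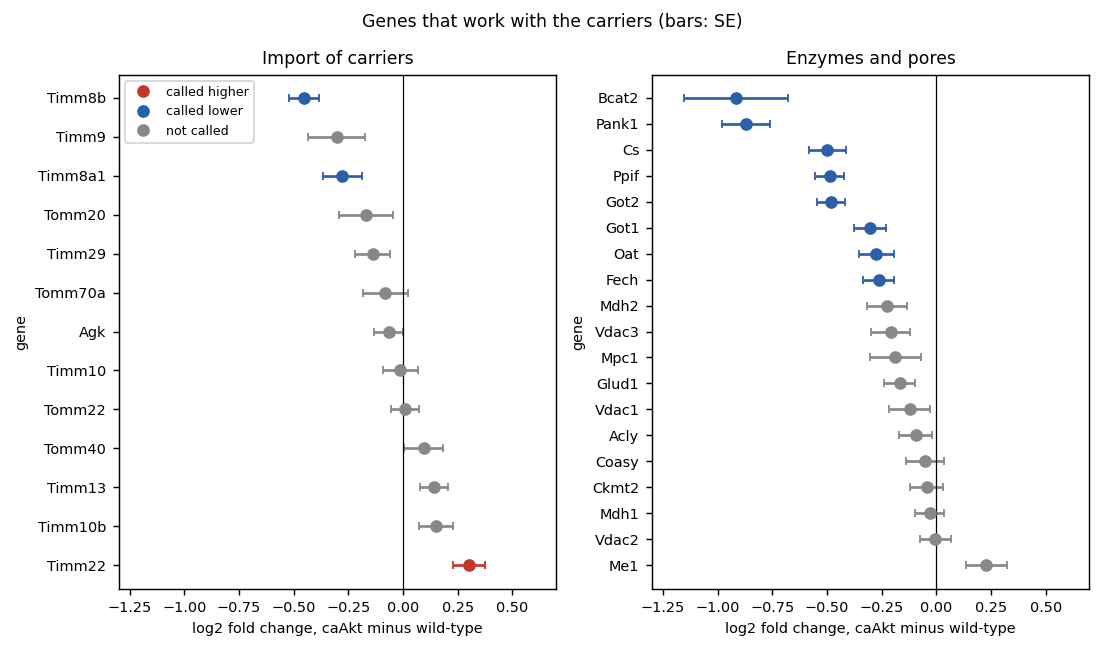
Log2 fold change (caAkt minus wild-type, x axis) of the 13 measured genes of carrier import (left panel) and of 19 genes of enzymes and pores beside the carriers (right panel), with bars of 1 SE and colours for those that passed the test. Import genes lie on both sides of 0 with Timm22 highest at 0.30, while of the enzymes and pores the 8 coloured points all lie below 0.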

How the data were processed

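Expression arrays of mouse ventricle, 3 wild-type and 3 caAkt, were analysed from the deposited table. Its log2 values were made by the authors with RMA (R package affy), per the submitters' processing notes, which name no version. RMA corrects background, quantile-normalizes the arrays and summarises each probe set, so changes are relative to the bulk of the array. The labels' protocols name Trizol extraction, column purification and one-cycle biotin labelling.

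Of 45101 probe sets, 64 were controls, and the platform annotation gave 34945 of the rest 1 gene symbol, 932 several and 9160 none. Comparison with RefSeq gene identifiers changed 0 symbols. A probe set shared by Slc25a37 and another gene was left out. The brightest probe set by mean over the 6 arrays stood for a gene. The test was limma 3.58.1 under R 4.3.3 with default eBayes, two-sided, on 4 residual degrees of freedom. P-values were adjusted by Benjamini-Hochberg over 18193 genes and read at 0.05. A fit over all probe sets was run alike, and adjusted p-values in the text come from limma. Differences within 6 pairs of carriers were tested by exact permutation with scipy 1.17.1. The steps were tested on simulated data.

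The members, their grouping by substrate, the lists and the tests were chosen with earlier results of these data known. Values on every array are given for Slc25a1, Slc25a3, Slc25a4, Slc25a5, Slc25a11, Slc25a12, Slc25a13, Ucp1 and Ucp3 and for up to 4 called members per substrate class with the smallest adjusted p. From each partner list up to 4 called genes by smallest adjusted p are named. Got1, Oat, Bcat2, Fech and all uncalled partner genes named are additions made with their values in view. Alternatives tried were trend with robust eBayes, the mean of probe sets, plain probe sets, a filter on low signal, a further quantile normalization, centring on medians, weights for arrays, a replicate block, an adjusted p under 0.01 and omission of each array. Whether arrays came from separate hearts is not stated, so p-values reflect the spread between these samples, possibly technical. Precision is limited by 3 arrays a group.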

Additional observations from a re-analysis of the deposited data

How the results depend on the processing

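The 21 carriers called kept their direction under each alternative that gave them a value; Slc25a41 had none after the filter on low signal, and Slc25a26 and Slc25a28 none among plain probe sets. The number higher was 3 to 5 and the number lower 11 to 14 without single arrays, where 13.0 to 14.3% of all genes were higher and 8.88 to 12.2% lower; at a threshold of 0.01, 3 carriers were higher and 7 lower (10.9% and 6.98% of all genes). The median of the carriers was -0.16 to -0.12 without single arrays and -0.20 after the filter on low signal, which leaves fewer genes (0.02 over all genes left). Import genes called higher were 0 to 1 and lower 1 to 2 without single arrays; at 0.01 they were 0 and 1 (limma; 1 higher at an unadjusted p under 0.05), and 1 was lower with the mean of probe sets, plain probe sets or median centring. Enzymes and pores lower were 6 to 9 without single arrays and 4 at 0.01. Plain probe sets, which replace the bright probe sets by others, ended the call of Slc25a5 (0.12, adjusted p = 0.427) and called Slc25a4 (-0.55, adjusted p = 0.000522) and Slc25a3 (-0.44, adjusted p = 0.0317); the mean of probe sets gave Slc25a5 0.27 (adjusted p = 0.0514), Slc25a4 -0.25 (0.0239) and Slc25a3 -0.30 (0.0163).

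The sign turned in 20 values of 7 carriers, none of them called in the main comparison. With the mean of probe sets Slc25a44 was -0.062, Slc25a39 -0.15, Slc25a48 -0.032 and Slc25a53 0.049. Slc25a39 was -0.51 with plain probe sets (adjusted p = 0.0119), -0.035 after repeated quantile normalization and -0.0026 with array weights. Ucp1 was 0.067 with array weights, and Slc25a54 was 0.044 after repeated quantile normalization, 0.0098 with median centring and 0.012 with array weights. Without single arrays Slc25a14 was -0.048 to 0.018, Slc25a39 -0.024 to 0.027, Ucp1 -0.16 to 0.076, Slc25a48 -0.017 to 0.054, Slc25a53 -0.19 to 0.0048 and Slc25a54 -0.075 to 0.075. The causes were not tested.

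The sample titles number the replicates without saying whether same-numbered arrays are paired. Deviations of same-numbered arrays from their group means correlated at 0.27, 0.03 and -0.12 across genes, which cannot settle this with 3 arrays a group. With the replicate number as a block, 5 carriers were higher and 15 lower (6 and 15 without the block), with a median of -0.13; Slc25a41 and Slc25a45 were not called and Slc25a16 was (adjusted p = 0.0496). In the import list 1 was higher and 3 lower, and among enzymes and pores 0 were higher (limma; 1 at an unadjusted p under 0.05 in the fit without the block) and 8 lower. Signals near the top of the scale (Slc25a4, Slc25a3) or at low signal limit what a difference can show.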
